A study of Mus musculus with 33 samples.

Results

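The oocytes described here are 7 germinal vesicle oocytes with 1 disrupted copy of Nlrp5 and 6 wild-type oocytes, all at the surrounded nucleolus (SN) stage, out of 33 single oocytes whose RNA was counted. The Nlrp5 +/- oocytes are those numbered 37, 38, 39, 40, 46, 47 and 55, and the Nlrp5 +/+ oocytes are 69, 72, 77, 80, 85 and 86. Genotype came from the sample labels and stage from the study's own staging, and oocyte 61 (Nlrp5 +/-) was left out because its stage is given in more than 1 way. All 13 came from females aged 3 weeks on a C57BL6/Babr background, from ovaries digested with collagenase without hormonal stimulation. The mutant line carries a frameshift made with CRISPR/Cas9, so every cell of the animal has the mutation and the surrounding follicle cells share the genotype of the oocyte. Polyadenylated RNA of each oocyte was separated from its DNA, amplified by a Smart-seq2 type protocol and sequenced. The comparison asks whether loss of 1 copy of Nlrp5 alters the transcriptome of the mature oocyte.

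Nlrp5 encodes NALP5, also called MATER, a protein of the subcortical maternal complex that mouse oocytes store during growth and that the embryo needs for its first divisions. It is a maternal-effect gene: the genotype of the mother matters, while the embryo's own copy does not replace the stored product. A growing oocyte is transcriptionally active and has a non-surrounded nucleolus (NSN). Towards the end of growth transcription is shut down and chromatin condenses around the nucleolus, which is the SN configuration, so an SN oocyte holds the finished maternal store. The complex also contains TLE6, OOEP (FLOPED), KHDC3 (FILIA), PADI6, ZBED3 and other NLRP proteins.

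The Nlrp5 +/- oocytes had between 5730251 and 9973348 counts on genes and the Nlrp5 +/+ oocytes between 5136525 and 15573360, with medians of 7002484 and 12001733.5. Values below are normalized counts, that is counts divided by a size factor (the median of ratios over the 13 oocytes), and a fold is log2 of the ratio of group means after adding 1, with Nlrp5 +/- over Nlrp5 +/+. The labels name no mouse, so the oocytes of 1 group were treated as 1 sample. No test was possible on that basis, and SDs describe the spread between cells only. Whether the oocytes of the groups overlap is given as a description. Among many genes some groups can fail to overlap by chance. Each first index sequence was used with 1 genotype only, and the study's methods describe Nlrp5 +/- females as littermates of Nlrp5 -/- females, and Nlrp5 +/+ females as mostly taken from the colony in which the line was made. Genotype, index and colony therefore cannot be told apart.

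Oocyte 55 stood apart from the others. On the first principal component of 13442 genes, which held 18.2% of the variance, it lay at 91.7 while the other 12 oocytes lay between −30.3 and 21.9. On the second, with 14.2% of the variance, Nlrp5 +/+ oocyte 80 lay at 75.8 and the other 12 between −53.4 and 15.9. Nlrp5 +/+ oocyte 77 lay highest on the third, at 59.95, followed by oocyte 80 at 22.3. The genotypes overlapped on each of the first 4 components. On the third, with 11.2% of the variance, 5 of 7 Nlrp5 +/- oocytes (39, 40, 46, 47 and 55, at −40.6 to −16.0) lay below the lowest Nlrp5 +/+ oocyte (2.06), and oocytes 37 and 38 (10.3 and 8.32) lay within the Nlrp5 +/+ range. Across genes, log2 levels of oocyte pairs had a mean correlation of 0.927 within Nlrp5 +/- (21 pairs), 0.936 within Nlrp5 +/+ (15 pairs) and 0.930 between the genotypes (42 pairs). Without oocyte 55 these were 0.938 within Nlrp5 +/- and 0.935 between genotypes. A pair of different genotype was thus about as alike as a pair of the same genotype. Pairs share genes and cells, so these correlations are descriptions.

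Nlrp5 (ENSMUSG00000015721, chromosome 7, 23385889 to 23441922, plus strand, GRCm38, protein-coding) was lower in every Nlrp5 +/- oocyte than in any Nlrp5 +/+ oocyte. Its normalized counts in Nlrp5 +/- oocytes were 6445 in oocyte 37, 6624 in 38, 8412 in 39, 10312 in 40, 5444 in 46, 6658 in 47 and 9766 in 55. In Nlrp5 +/+ oocytes they were 11406 in oocyte 69, 10691 in 72, 11581 in 77, 15717 in 80, 12894 in 85 and 12156 in 86. The highest Nlrp5 +/- oocyte (40) and the lowest Nlrp5 +/+ oocyte (72) lay close together, and the groups did not overlap. The means were 7666 ± 1848 (SD, n = 7 oocytes) and 12407 ± 1783 (SD, n = 6), a log2 fold of −0.69, or 0.618 times the Nlrp5 +/+ level. In pooled counts Nlrp5 took 903 CPM (counts scaled to the total on genes) in Nlrp5 +/- (95% Poisson interval 895 to 911) and 1474 in Nlrp5 +/+ (1465 to 1483), intervals that cover counting error only.

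The mean differed between index sequences within a genotype. It was 7948 over oocytes 37 to 40, 6051 over 46 and 47, and 9766 in oocyte 55, against 11048, 13649 and 12525 in the 3 Nlrp5 +/+ index sets of 2 oocytes each. Every Nlrp5 +/- index mean was thus under every Nlrp5 +/+ index mean. The 2 SN Nlrp5 -/- oocytes, scaled to the same reference, had 2209 and 2395, so transcript counted on the gene was lowest where both copies carry the frameshift and the Nlrp5 +/- oocytes lay between. At the NSN stage, in other oocytes, Nlrp5 ranged from 6654 to 13472 in 8 Nlrp5 +/- oocytes and from 10637 to 28954 in 4 Nlrp5 +/+ oocytes (log2 fold −0.94), where the groups overlapped.

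**Figure D1:**
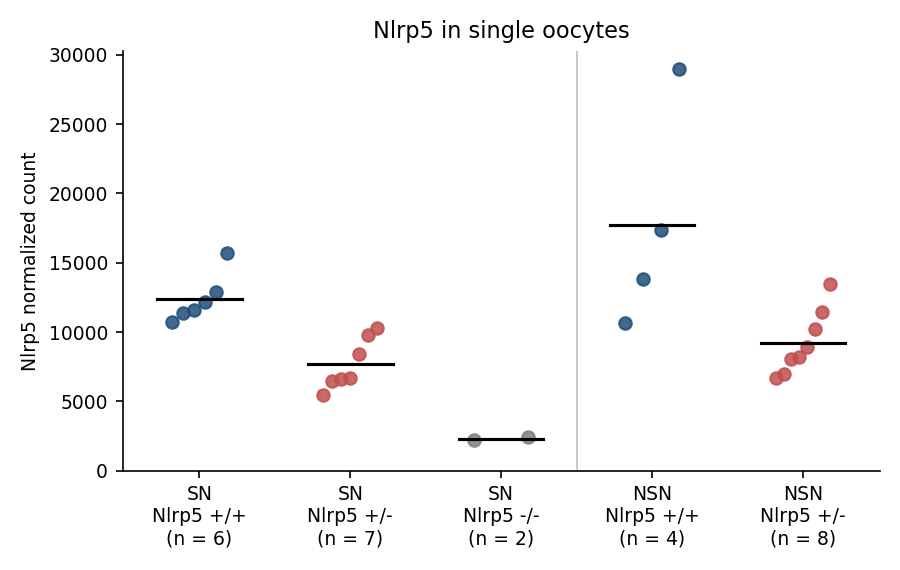
Normalized count of Nlrp5 (vertical axis, linear from 0) in single oocytes by stage and genotype, with 1 point per oocyte and a line at the mean; NSN oocytes were scaled among themselves. The 7 SN Nlrp5 +/- oocytes (5444 to 10312) all lie under the 6 SN Nlrp5 +/+ oocytes (10691 to 15717) and above the 2 SN Nlrp5 -/- oocytes.

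Apart from Nlrp5, few genes separated the genotypes. Among the 8321 genes that averaged at least 100 normalized counts, the median log2 fold was 0.00 and 97.5% lay within 0.5 of zero on the log2 scale. In this set every Nlrp5 +/- oocyte exceeded every Nlrp5 +/+ oocyte for 2 genes (0.024% of those measured), Hjurp and Rbm22, and the reverse held for 4 genes (0.0481%), Nlrp5, Gm31579, Nol6 and Gm19299. A fold of at least 2 was seen for 3 genes higher in Nlrp5 +/- (0.0361%) and 5 lower (0.0601%). Without oocyte 55 the groups did not overlap for 7 genes higher and 15 lower, and without oocytes 46 and 47, which share an index, for 16 higher and 20 lower. Fewer oocytes leave fewer chances to overlap, so these counts are larger by construction. The number of genes that would separate by chance alone was not tested.

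**Figure D2:**
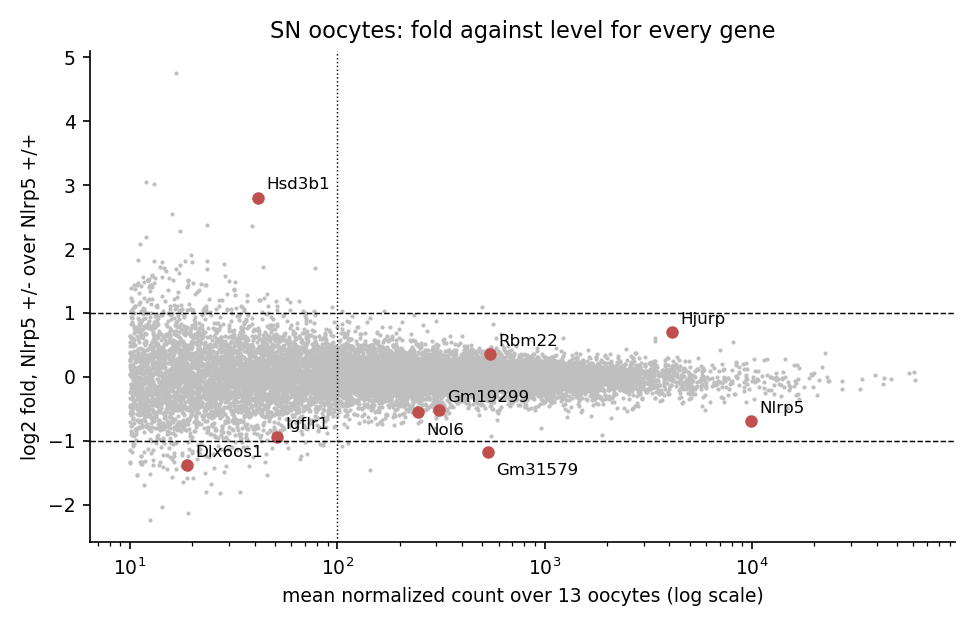
Log2 fold of Nlrp5 +/- over Nlrp5 +/+ SN oocytes (vertical axis) against the mean normalized count over 13 oocytes (horizontal axis, log scale) for 13442 genes with a mean of at least 10. Dashed lines mark a 2-fold difference, the dotted line a mean of 100, and red points the 9 genes whose groups do not overlap (3 higher and 6 lower).

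Hjurp encodes the chaperone that loads the centromeric histone CENP-A. Its normalized counts were 5779, 4223, 4541, 5801, 4101, 5297 and 5223 in Nlrp5 +/- oocytes 37, 38, 39, 40, 46, 47 and 55. In Nlrp5 +/+ oocytes 69, 72, 77, 80, 85 and 86 they were 3418, 2267, 2860, 2267, 3788 and 3793. The Nlrp5 +/- values all lay above the highest Nlrp5 +/+ value, with means of 4995 ± 708 (SD, n = 7 oocytes) and 3066 ± 706 (SD, n = 6) and a log2 fold of 0.70. Over all settings tried, oocyte 61 and the left-out oocytes included, that fold stayed between 0.63 and 0.78. In NSN oocytes Hjurp was 3465 to 6257 in Nlrp5 +/- and 2584 to 4096 in Nlrp5 +/+ (log2 fold 0.52, overlapping), and the 2 SN Nlrp5 -/- oocytes had 2820 and 4089. Hjurp lies on chromosome 1 at 88262471 to 88277633 on the minus strand.

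Rbm22, a splicing factor of the activated spliceosome, differed by less, with 551 to 652 in Nlrp5 +/- and 333 to 531 in Nlrp5 +/+ oocytes (log2 fold 0.36). The lowest Nlrp5 +/+ value belonged to oocyte 80, and without that oocyte the fold was 0.28. In NSN oocytes its log2 fold was −0.07.

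Nol6, which takes part in processing of the small ribosomal subunit RNA in the nucleolus, had a normalized count of 158 to 228 in Nlrp5 +/- oocytes (median 206) and 243 to 373 in Nlrp5 +/+ oocytes (median 291). Its log2 fold was −0.55, and −0.38 at the NSN stage, where the groups overlapped. Gm31579, a long non-coding RNA on chromosome 6 at 50909770 to 50910735, had 466, 389, 134, 404, 204, 387 and 382 in Nlrp5 +/- oocytes 37, 38, 39, 40, 46, 47 and 55, and 635, 815, 928, 930, 642 and 620 in Nlrp5 +/+ oocytes 69, 72, 77, 80, 85 and 86. With a log2 fold of −1.17 it had the lowest fold among the 6 genes of this abundance whose groups did not overlap. In NSN oocytes it ranged from 274 to 1457 in Nlrp5 +/- and from 95.7 to 853 in Nlrp5 +/+, with a fold of opposite sign (0.25). Gm19299, a long non-coding RNA on chromosome 9, had 198 to 290 in Nlrp5 +/- and 318 to 425 in Nlrp5 +/+ oocytes (log2 fold −0.52), against 0.11 at the NSN stage.

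The genes with the greatest folds at this abundance varied widely between cells. Efna1, a membrane-bound ligand of Eph receptors, had the lowest log2 fold (−1.46), with 1.46 to 267 in Nlrp5 +/- and 66.2 to 384 in Nlrp5 +/+ oocytes, and 4 of 7 Nlrp5 +/- oocytes lay under all Nlrp5 +/+ oocytes. It was followed by Gm31579 and then by Muc20 (−1.08), Tnip3 (−1.04) and Atg10 (−1.01), of which Atg10, a conjugating enzyme of autophagy, came nearest to separation, with 6 of 7 Nlrp5 +/- oocytes under every Nlrp5 +/+ oocyte. Gli3, a transcription factor of Hedgehog signalling, had the highest log2 fold (1.10), but it ranged from 136 to 1139 in Nlrp5 +/- and from 0 to 921 in Nlrp5 +/+ oocytes. Gbp7 (1.03), Trim6 (1.02), Ldhc (0.97) and Trpc5os (0.96) likewise overlapped, with 2 or 3 of 7 Nlrp5 +/- oocytes above all Nlrp5 +/+ oocytes. Trpc5os lies antisense to Trpc5, Muc20 overlaps Muc4 on the other strand, and since the libraries keep no strand the reads of such partners cannot be assigned with certainty. Without oocyte 37 the fold of Efna1 was −2.17, without Nlrp5 +/+ oocyte 69 that of Trpc5os was 1.67, without oocyte 85 those of Gli3 and Trim6 were 1.82 and 1.53, and without oocyte 55 those of Gbp7 and Ldhc were 0.67 and 0.63.

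Below a mean of 100 normalized counts 3 more genes with a mean of at least 10 did not overlap, which makes 3 higher (0.0223% of 13442) and 6 lower (0.0446%) in all. They are Hsd3b1, Igflr1 and Dlx6os1, and the latter 2 were singled out after their values were seen. Igflr1, a receptor for IGF-like proteins, had 19.7 to 56.9 in Nlrp5 +/- and 57.1 to 87.8 in Nlrp5 +/+ oocytes (log2 fold −0.94), with the highest and the lowest nearly touching. It shares its position with Gm49396 on the same strand. Dlx6os1, a non-coding RNA of the Dlx5 and Dlx6 region, had 0 to 19.6 and 20 to 44.5 (log2 fold −1.39), and at the NSN stage −1.19. A fold of at least 2 was seen for 165 of 13442 genes in the higher direction (1.23%) and for 114 in the lower (0.848%), most of them at low counts.

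The study's own list of genes for SN Nlrp5 +/- oocytes holds Nlrp5 and 7 others, and it was chosen on these same oocytes, so the values that follow describe that choice and do not add evidence. Hsd3b1 was the single member other than Nlrp5 that passed the mean of 10 without overlap between the groups. It encodes a 3-beta-hydroxysteroid dehydrogenase, which converts pregnenolone to progesterone in steroid-producing cells of ovary, testis and adrenal. Normalized counts were 14.1, 16.4, 39.3, 53.9, 184, 137 and 39.4 in Nlrp5 +/- oocytes 37, 38, 39, 40, 46, 47 and 55, and 6.29, 10.6, 9.89, 11.9, 5.43 and 10.2 in Nlrp5 +/+ oocytes 69, 72, 77, 80, 85 and 86. Oocytes 46 and 47 were far above the other 5, and the lowest Nlrp5 +/- value was not far above the highest Nlrp5 +/+ value. The log2 fold was 2.80 with all oocytes and 1.74 without 46 and 47. In NSN oocytes, which did not enter this comparison, Hsd3b1 ranged from 16.9 to 510 in 8 Nlrp5 +/- oocytes and from 9.15 to 14.04 in 4 Nlrp5 +/+ oocytes, again without overlap, where 0.227% of 13676 genes had every Nlrp5 +/- oocyte above every Nlrp5 +/+ oocyte. The 2 SN Nlrp5 -/- oocytes had 135 and 54.5.

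Ccl21a, a chemokine of lymphoid tissue and lymphatic vessels that attracts CCR7-bearing cells, was counted mostly in Nlrp5 +/- libraries. Its values were 4.22, 0, 10.4, 3.68, 74.9, 115 and 7.29 in oocytes 37, 38, 39, 40, 46, 47 and 55, and 0 in each Nlrp5 +/+ oocyte except oocyte 85, with 1.09. Pooled over oocytes, 229 of 51092440 counts against 2 of 67504454 gave a ratio of 151 with a 95% interval for counting error of 41.4 to 1257. Most of the counts came from oocytes 46 and 47, without which the log2 fold was 2.37 instead of 4.75, and it was 3.89 without oocyte 47 alone. No count was found in the 4 NSN Nlrp5 +/+ oocytes and up to 23.2 in the NSN Nlrp5 +/- oocytes, and the 2 SN Nlrp5 -/- oocytes had none. Near-identical copies of this gene exist in the mouse genome, so reads may have been shared with them.

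Gstm1, a glutathione transferase, had 23.9, 0, 10.4, 22.1, 30.8, 37.6 and 21.9 in Nlrp5 +/- oocytes 37, 38, 39, 40, 46, 47 and 55 and 0 to 5.30 in Nlrp5 +/+ oocytes. All but oocyte 38 lay above the Nlrp5 +/+ range, and the log2 fold was 3.04. At the NSN stage it was 4.27, with 1.32 to 73.2 against 0 to 2.75. Mcrip1, a regulator of the co-repressor CtBP, had 4.22 to 28.6 against 0 to 7.43 (log2 fold 2.64, and 3.36 without oocyte 72), Ndn, an imprinted growth suppressor, 1.16 to 29.4 against 0 to 1.65 (2.81), and Plekho2 0 to 15.9 against 0 to 1.65 (2.69). In each of these 3, 6 of 7 Nlrp5 +/- oocytes were above all Nlrp5 +/+ oocytes, though the pooled Nlrp5 +/+ counts were 13, 4 and 3. The same genes at the NSN stage had log2 folds of 0.89, −0.28 and 0.72 with overlapping groups.

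Aloxe3, an epidermis-type lipoxygenase that makes hepoxilins in skin, ran the other way. It had no count in any of the 7 Nlrp5 +/- oocytes, and normalized counts of 14.9, 3.18, 11.5, 9.38, 21.2 and 9.02 in Nlrp5 +/+ oocytes 69, 72, 77, 80, 85 and 86. The pooled counts were 0 of 51092440, which allows up to 0.0587 CPM (3 counts over the group), and 101 of 67504454, or 1.496 CPM (1.22 to 1.82), so Aloxe3 was at least 25.5-fold lower against that floor, with the Nlrp5 +/+ level taken at its point estimate. With counting error in both groups, the 95% interval of the Nlrp5 +/- to Nlrp5 +/+ ratio runs from 0 to 0.0492. In NSN oocytes it was present in both genotypes, at 0 to 10.2 and 0 to 3.34. The SN Nlrp5 -/- oocytes had 1.42 and 6.90. Itih3, a hyaluronan-binding serum protein, was singled out after its values were seen because it too had no count in any Nlrp5 +/- oocyte and at least 1 in every Nlrp5 +/+ oocyte (2.56 to 11.5). Its pooled ratio had a 95% interval from 0 to 0.0952. At the NSN stage its log2 fold was 1.06.

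**Figure D3:**
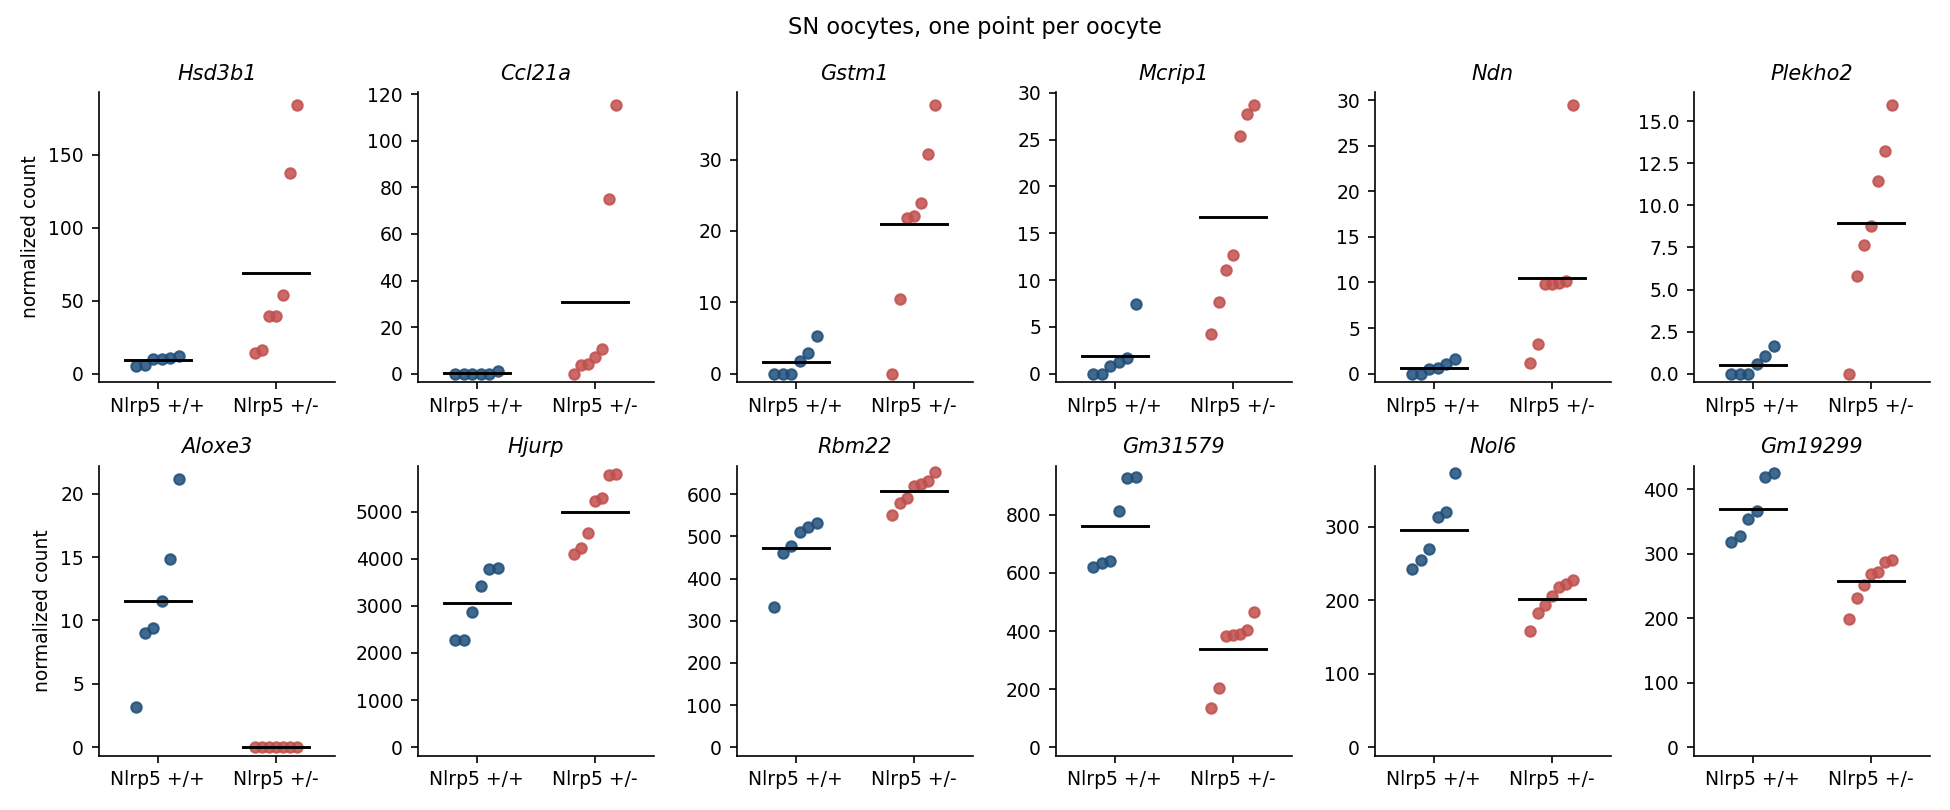
Normalized counts in SN oocytes for the 7 genes of the study's list other than Nlrp5 and for the 5 other genes with a mean of at least 100 whose groups do not overlap, 1 point per oocyte, line at the mean, linear axes. Hsd3b1, Hjurp and Rbm22 lie higher in every Nlrp5 +/- oocyte, Aloxe3, Gm31579, Nol6 and Gm19299 lower, and Ccl21a is high in 2 Nlrp5 +/- oocytes.

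Several of the low-count genes that were higher are known from other cells of the ovary, so the marker lists of those cells were examined. No minimum on the mean was set for these lists, a choice made after seeing the data, because a member can pass one through its higher group alone. Of 24074 genes with a count in any oocyte, 4.95% were at least 2-fold higher and 4.16% at least 2-fold lower, and 11986 had a fold above 0. Of 9 markers of theca and interstitial cells, the steroid-producing layer around the follicle, all 9 had a fold above 0 and 4 were at least 2-fold higher, with a median log2 fold of 0.97 (1.25 over the 5 with a mean of at least 10, of which 3 were at least 2-fold higher). These 4 were Cyp17a1 (2.98), Hsd3b1, Star (2.37, and 2.97 without oocyte 85), which carries cholesterol into mitochondria, and the Hedgehog receptor Ptch1 (1.25). Cyp11a1, the side-chain cleavage enzyme, had 0.97 and the prolactin receptor Prlr 0.12, and Lhcgr, Fabp3 and Insl3 had 0.39, 0.29 and 0.12. Cyp17a1, which defines theca cells, had 97 counts over 7 of 7 Nlrp5 +/- oocytes and 7 counts over 3 of 6 Nlrp5 +/+ oocytes. Summed over all 9 genes the level was 49.0 to 122 CPM in Nlrp5 +/- and 39.4 to 72.6 in Nlrp5 +/+ oocytes, with Prlr making up most of it. Over the 8 members under a mean of 50 in Nlrp5 +/+ oocytes, a subset chosen after their values were seen, the sums were 12.3, 9.58, 12.7, 17.9, 47.3, 36.7 and 16.1 in oocytes 37, 38, 39, 40, 46, 47 and 55. In the Nlrp5 +/+ oocytes they were between 4.66 and 6.55. These SN groups did not overlap, with or without oocytes 46 and 47. The subset holds Hsd3b1, which the study chose on these oocytes, and over the other 7 members the sums were 7.64 to 26.0 CPM against 3.62 to 5.27. In NSN oocytes the sums over the 8 members overlapped, with 16.9 to 105 CPM in Nlrp5 +/- and 12.9 to 22.5 in Nlrp5 +/+ oocytes, and Ptch1 had a log2 fold of −0.94. Without oocyte 46 alone the fold of Cyp11a1 was 0.59.

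Of 15 stroma, vessel and blood markers 11 had a fold above 0 and 8 were at least 2-fold higher, with a median of 1.02. They include Acta2 (smooth muscle actin, log2 fold 2.35), the collagen genes Col1a2 (1.91) and Col3a1 (1.30), and the haemoglobin genes Hbb-bs (1.76) and Hba-a1 (1.10). The matrix proteoglycan Dcn (−0.79, with 118 counts in Nlrp5 +/- and 255 in Nlrp5 +/+ oocytes), the endothelial receptor Kdr (−0.21), the macrophage gene Cd68 (−0.16) and the endothelial gene Pecam1 (−0.02) had folds below 0. Summed over all 15 genes the level was 70.3 to 117 CPM in Nlrp5 +/- and 73.7 to 91.0 in Nlrp5 +/+ oocytes, and 6 of 7 Nlrp5 +/- oocytes lay above all Nlrp5 +/+ oocytes. Without Pecam1, the member above a mean of 50, it was 10.9 to 65.3 CPM in Nlrp5 +/- and 11.8 to 25.3 in Nlrp5 +/+ oocytes, where oocytes 40, 46 and 47 were highest and the groups overlapped. The fold of Col1a2 was 3.16 without Nlrp5 +/+ oocyte 72, and that of Hbb-bs ranged from 1.15 without oocyte 40 to 3.00 without oocyte 86. With a mean of at least 10 the median over stroma, vessel and blood markers was 0.61 over 10 genes, 5 of them at least 2-fold higher. With an oocyte left out that median was 0.41 (without 72) to 1.315 (without 37). Of 17 granulosa cell markers 13 had a fold above 0 and 7 were at least 2-fold higher, with a median of 0.96, but with a mean of at least 10 the median was 0.00 over 7 genes and 1 of them, Inha, was at least 2-fold higher. The other 6 had few counts, such as Krt18 with 11 in Nlrp5 +/- and 0 in Nlrp5 +/+ oocytes. Inha, an inhibin subunit, had 1.49 (2.18 without Nlrp5 +/+ oocyte 72), the aromatase gene Cyp19a1 −0.03 and Serpine2 −0.07. The sum over all 17 genes was 306 to 417 CPM in Nlrp5 +/- and 318 to 412 in Nlrp5 +/+ oocytes, and the sum over the 13 members under a mean of 50 was 4.27 to 27.4 against 1.38 to 12.1. Amh and Fshr, which mark granulosa cells, had 13 and 65 counts in the Nlrp5 +/- oocytes and 1 and 139 in the Nlrp5 +/+ oocytes. The direction of Fshr rested on single oocytes, since its log2 fold was −0.34 with all of them, 0.64 without oocyte 69, which had the highest level (53.1), and −0.95 without oocyte 37. Of 6 lymphatic endothelium markers 1 was at least 2-fold higher, the median was −0.07, and the sums overlapped, with 0.297 to 1.92 in Nlrp5 +/- and 0.195 to 2.46 in Nlrp5 +/+ oocytes over 4 members. The part of other cells' RNA in Hsd3b1, Ccl21a, Gstm1 and the other low-count genes was not tested.

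**Figure D4:**
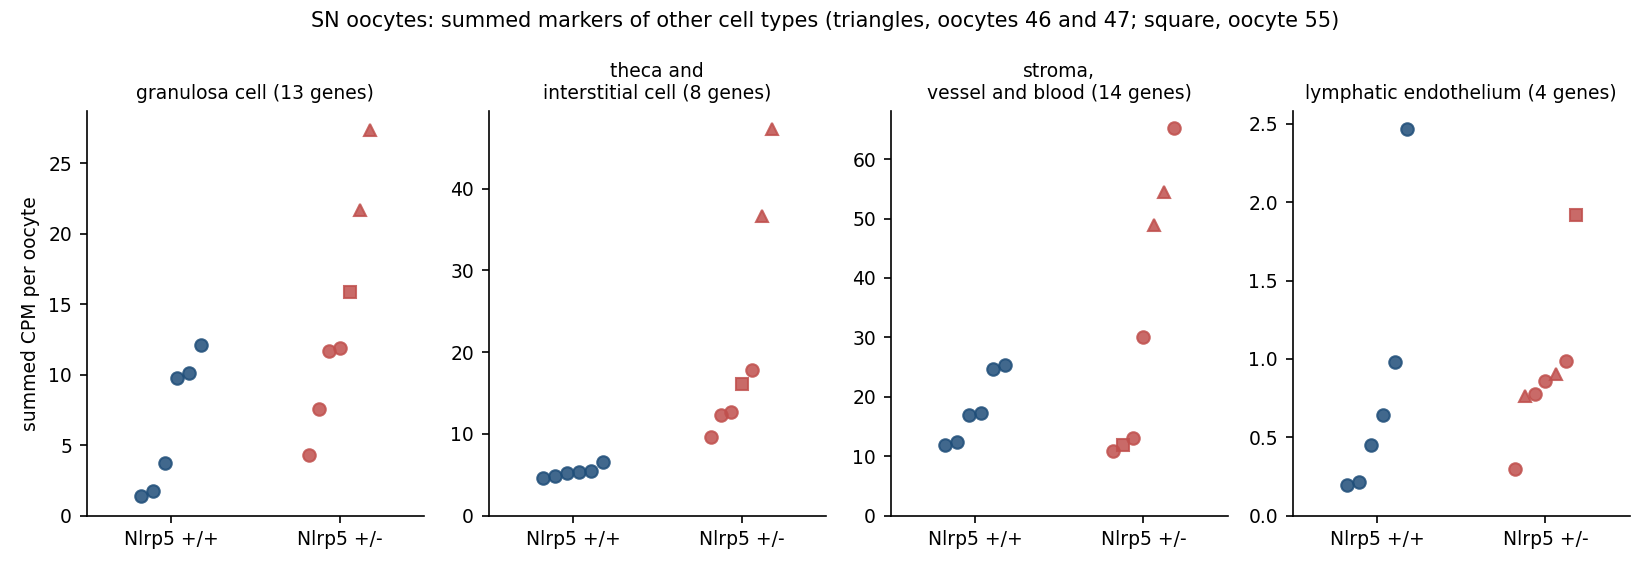
Summed CPM (vertical axes, linear from 0) of markers of 4 other ovarian cell types in each SN oocyte, over list members with a mean under 50 in Nlrp5 +/+ oocytes; triangles are oocytes 46 and 47 and the square is oocyte 55. Of these sums only the theca and interstitial ones did not overlap between the genotypes (9.58 to 47.3 against 4.66 to 6.55). Members were chosen by their Nlrp5 +/+ level after values were seen, and they include Hsd3b1, which the study chose on these oocytes. Over all 9 theca and interstitial members the sums overlapped, at 49.0 to 122 against 39.4 to 72.6 CPM.

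Apart from Nlrp5, the listed identity markers and complex members of the oocyte's own store overlapped between the genotypes. Oocyte identity markers, 10 genes that include Gdf9, Bmp15 and the zona genes, summed to 33103 to 43213 CPM in Nlrp5 +/- and 32337 to 40573 in Nlrp5 +/+ oocytes, and their median log2 fold was 0.05. Of the 8 listed members of the subcortical maternal complex, none but Nlrp5 had groups that did not overlap. Padi6, a peptidylarginine deiminase needed for cytoplasmic lattices, had 47674 to 80766 in Nlrp5 +/- and 45040 to 66888 in Nlrp5 +/+ oocytes (log2 fold 0.08). Tle6 (0.15), Ooep (−0.13), Khdc3 (0.12), Nlrp2 (0.11), Zbed3 (−0.11) and Nlrp4f (0.06) were within 0.2 as well. The signs of Padi6, Tle6, Ooep, Zbed3 and Nlrp4f changed with the setting, as happens at folds this near 0.

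Nlrp5 sits among zinc finger genes and other Nlrp genes on chromosome 7. Of 60 other genes within 1 Mb, 15 had a mean of at least 10, with a median log2 fold of −0.06 and a range from −0.90 for Zfp93 to 0.61 for Nlrp4e. None of these 15 reached 2-fold and none had groups that did not overlap. Nlrp4e, a paralog of Nlrp5, had 603 to 2188 in Nlrp5 +/- and 470 to 1617 in Nlrp5 +/+ oocytes, and the potassium channel gene Kcnn4 had 19.6 to 62.5 and 42.7 to 90.2 (−0.78). The median of 10 other oocyte Nlrp genes was 0.00.

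The following gene lists had median log2 folds between −0.20 and 0.21, beside 0.00 over all 13442 genes. Oocyte growth factors and Kit had −0.01 over 7 genes and oocyte transcription factors 0.00 over 12, of which Sohlh2, a regulator of early oocyte growth, was 2-fold higher (1.00, and 0.58 without oocyte 46). Genes that the study names for Nlrp5 -/- oocytes, a comparison with the same Nlrp5 +/+ oocytes, had a median of 0.01 over 15, and none of them reached 2-fold. For zona pellucida and sperm binding genes the median log2 fold was 0.21 over 7 genes, with Zp3, the sperm-binding zona glycoprotein, at 0.37. For DNA methylation machinery it was 0.04 over 15 genes, with the de novo methyltransferase Dnmt3b at 0.47 (114 to 216 in Nlrp5 +/- and 83.8 to 145 in Nlrp5 +/+ oocytes). Histone modifiers (0.02 over 19), maternal mRNA storage and decay (−0.09 over 15), meiotic arrest and resumption (−0.02 over 13) and imprinted genes (0.05 over 27) were also near 0. Among these 27, which had a mean of at least 10, the folds ranged from −0.96 for Rasgrf1 to 1.57 for Mcts2 (2.14 at the NSN stage), and Mcts2 passed that mean through its Nlrp5 +/- level (21.1, against 6.43 in Nlrp5 +/+ oocytes). Mcts2 overlaps H13 (mean 1584, log2 fold 0.10) on the same strand, so their reads may be shared. Over the 39 imprinted genes with a count in any oocyte, taken after seeing the data, 7 were at least 2-fold higher, Ndn among them, and none was at least 2-fold lower, beside 4.95% and 4.16% of all genes with a count in any oocyte, and the median was 0.10. Factors of zygotic genome activation had a median of −0.20 over 11 genes, and without oocytes 46 and 47 it was 0.04. Within them the oocyte-specific homeobox gene Obox1 had 4548 to 6901 in Nlrp5 +/- and 5949 to 8900 in Nlrp5 +/+ oocytes (log2 fold −0.39), with 6 of 7 Nlrp5 +/- oocytes under all Nlrp5 +/+ oocytes. Obox5 (−0.28) likewise had 6 of 7 and Obox2 (−0.27) 5 of 7. Obox1 and Obox2 overlap in the annotation and reads of the family may be shared, and at the NSN stage the folds of these 3 genes were 0.05, 0.11 and 0.07.

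Metabolic and housekeeping lists gave the following values. Heat shock proteins had a median log2 fold of 0.17 over 18 genes, with the constitutive chaperone Hspa8 at 0.42 (3880 to 10047 in Nlrp5 +/- and 4193 to 9089 in Nlrp5 +/+ oocytes). Of 13 mitochondrially encoded genes 12 had a fold above 0, with a median of 0.32 (0.12 without oocyte 46), and mt-Co1, a subunit of cytochrome oxidase, had 7174 to 13207 and 2306 to 11050. Nuclear subunits of oxidative phosphorylation (−0.05 over 79) and cytoplasmic ribosomal proteins (−0.01 over 78) were near 0. Glycolysis had 0.10 over 15 genes, and Gapdh lay above all Nlrp5 +/+ oocytes in 6 of 7 Nlrp5 +/- oocytes (0.67), at 36.0 to 84.8 against 28.6 to 45.1. Steroid synthesis had 0.22 over 11 genes, including Hsd3b1 and Star, cholesterol synthesis 0.05 over 18 genes with Pmvk, a kinase of the mevalonate pathway, at 1.44, and glutathione S-transferases 0.19 over 13, including Gstm1 and Gstm2 (1.81, and 2.42 without oocyte 80) and the microsomal Mgst3 at −0.80. Hsd3b1, Star, Pmvk, Gstm1 and Gstm2 had means of 9.06, 6.56, 4.99, 1.66 and 4.98 in Nlrp5 +/+ oocytes and passed the mean of 10 through the Nlrp5 +/- group alone, so the lists were also taken over every member with a count in any oocyte, a choice made after seeing the data. Of these, 3 of 15 steroid synthesis genes, 2 of 20 cholesterol synthesis genes and 2 of 22 glutathione S-transferases were at least 2-fold higher, beside 4.95% of all such genes, and 2 of the glutathione S-transferases were at least 2-fold lower. The medians were then 0.36, 0.05 and 0.11.

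**Figure D5:**
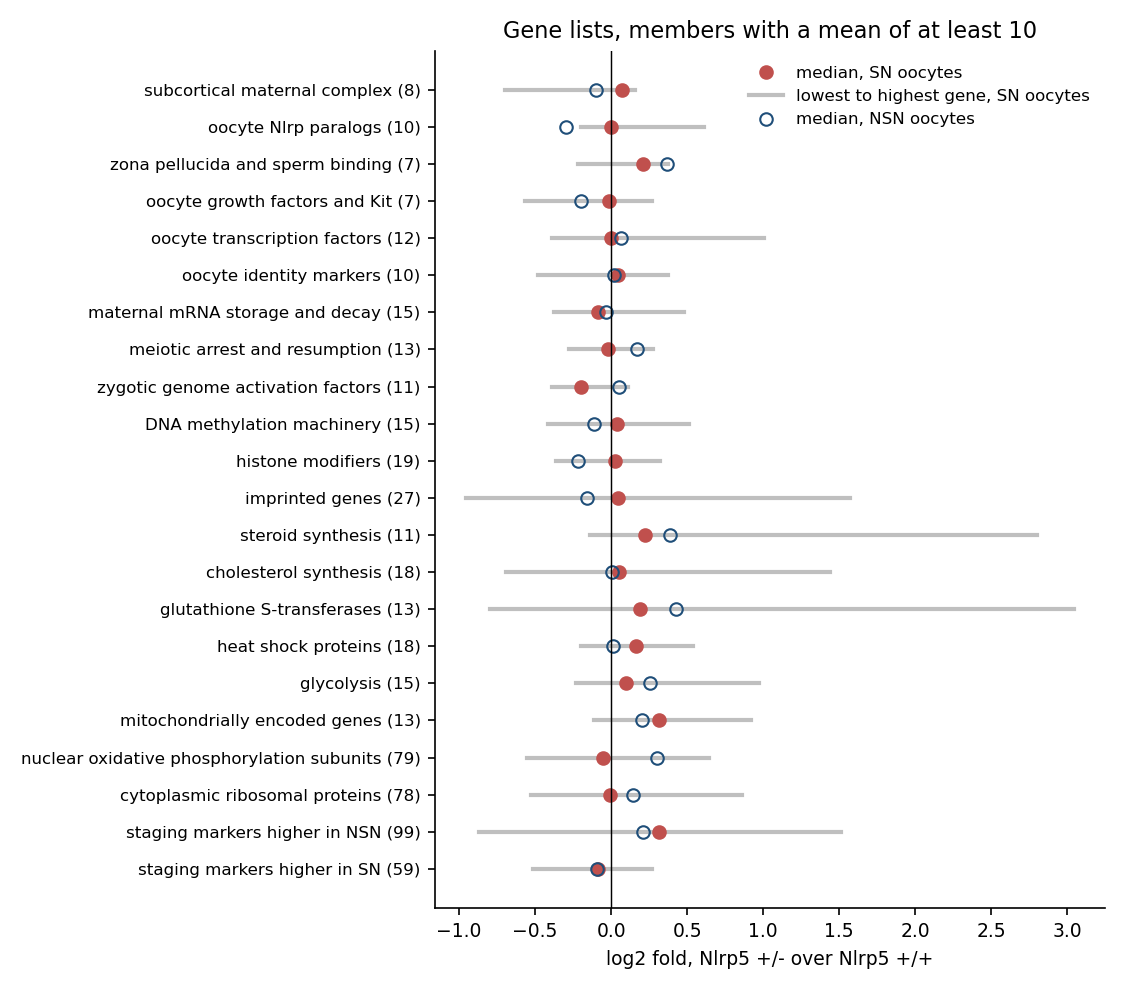
Log2 fold of Nlrp5 +/- over Nlrp5 +/+ (horizontal axis) for gene lists, with the number of members of mean at least 10 in SN oocytes in brackets; red points are medians and grey bars the lowest to highest gene in SN oocytes, open circles the medians in NSN oocytes. Lists chosen by the study on these oocytes and the marker lists of other cell types are not drawn; the SN medians drawn lie between −0.20 and 0.32.

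The genes by which stage was assigned are a description of how the oocytes were chosen. A staging score, the mean log2 level of 105 markers higher in NSN minus that of 59 markers higher in SN, was −5.14 to −3.61 in Nlrp5 +/- (median −3.99) and −5.28 to −4.07 in Nlrp5 +/+ oocytes (median −4.77). The median difference was 0.78, and 4 of 7 Nlrp5 +/- oocytes scored above every Nlrp5 +/+ oocyte, towards the NSN side. Those were oocytes 37, 39, 40 and 55, while 38, 46 and 47 lay within the Nlrp5 +/+ range. Of 99 NSN markers with a mean of at least 10, 82 had a fold above 0 (6730 of all 13442 genes) and 8 were at least 2-fold higher (1.23% of all genes), with a median of 0.31, and the median of 59 SN markers was −0.08. Ccne1, the S-phase cyclin E1, was among the NSN markers with the greatest fold (1.21), at 17.5 to 84.4 in Nlrp5 +/- and 8.24 to 37.4 in Nlrp5 +/+ oocytes. The part of this difference in stage in the folds of other genes was not tested.

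The same genotypes at the NSN stage, 8 Nlrp5 +/- and 4 Nlrp5 +/+ oocytes, share no cell with the SN oocytes, although some share an index sequence with them. Across 7994 genes with a mean of at least 100 at both stages the folds had a correlation of 0.018, and across 13036 genes with a mean of at least 10 it was 0.062. Of 144 genes at least 2-fold higher in SN Nlrp5 +/- oocytes and measured at both stages, 16 (against 1.54% of all genes at the NSN stage) were at least 2-fold higher in NSN oocytes, and of 92 genes at least 2-fold lower 5 were so there (0.987% of all genes). The shares are not like for like. Genes past 2-fold at SN had mostly low counts, while 8483 of the 13676 genes behind the shares had a mean of at least 100. Of the 6 genes that separated the SN groups at a mean of at least 100, Hjurp, Nlrp5 and Nol6 had NSN folds of the same sign, and Rbm22, Gm31579 and Gm19299 of the opposite sign.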

How the data were processed

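The table of read counts per gene that the authors deposited for 33 single oocytes was used as it stands, without normalization. The methods name Trim Galore for trimming and HISAT2 for alignment, and exclude libraries with less than 4000000 reads. Coordinates are GRCm38 as in that table (the methods name a later build), and 52 repeated entries of 35373 were dropped. Deposited read totals and the authors' tables of fold changes and p-values were not used.

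Size factors (median of ratios within 13 oocytes), equal-weight means, a pseudocount of 1 and a mean of at least 10 were applied in Python 3.11.15, and the fold was tested on simulated data. With no mouse in the labels, no test was run. Genes were named by rule: Nlrp5, the study's list, up to 10 per direction without overlap and the 5 highest and 5 lowest folds at a mean of at least 100, up to 4 members of each list, the subcortical maternal complex and neighbours within 1 Mb. The members and lists were chosen with earlier results of these data known. Depth was 5136525 to 15573360 counts per oocyte. Alternatives were TMM factors (edgeR 4.0.16), total counts, medians, pooled sums, index means, a pseudocount of 5, other filters, each oocyte left out, oocyte 61 included and thinning to 5136525 counts. Leaving out oocytes 46 and 47, keeping 37 to 40 alone, and setting no minimum for marker lists of other cell types were chosen after seeing the data.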

Additional observations from a re-analysis of the deposited data

Results flagged for a closer look

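In 58 sets of oocyte values 7 held an oocyte far from the rest of its genotype by Dixon's criterion, of which chance gives about 1 in 20. Oocyte 55 lay at 91.7 on the first principal component. Among Nlrp5 +/- oocytes, oocyte 40 had 29.4 normalized counts of Ndn and oocyte 37 had 267 of Efna1, each far above the other 6. Among Nlrp5 +/+ oocytes, oocyte 85 had the single Ccl21a value above 0 (1.09), oocyte 72 the highest Mcrip1 (7.43), oocyte 69 the highest Trpc5os (233) and oocyte 80 the lowest Rbm22 (333). Without oocyte 72 the log2 fold of Mcrip1 was 3.36 instead of 2.64, and without oocyte 37 that of Efna1 was −2.17 instead of −1.46.

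Nlrp5 +/- oocyte 61, which was left out of the main comparison, exceeded every SN Nlrp5 +/+ oocyte for 6 genes of the study's list when scaled to the same reference. The study had chosen this list, so the values add no evidence, and the stage of oocyte 61 is given in more than 1 way. NSN Nlrp5 +/+ oocytes, scaled separately, reached 48.7 of Mcrip1, 25.6 of Plekho2 and 23.8 of Ndn. They reached 14.04 of Hsd3b1, 2.75 of Gstm1 and 0 of Ccl21a. The normalized counts of oocyte 61 were 1251 of Hsd3b1, 137 of Gstm1, 94.98 of Mcrip1, 34.5 of Ndn, 17.3 of Plekho2 and 15.8 of Ccl21a. Its summed theca and interstitial markers were 315 CPM over the 8 members under 50, above each of the 13 SN oocytes, and its Nlrp5 value was 5471.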

How the results depend on the processing

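The log2 fold of Nlrp5 stayed negative under all 23 alternatives, from −0.83 with medians to −0.58 without oocytes 46 and 47, and from −0.78 to −0.62 when each oocyte was left out in turn. The staging difference kept its sign under all 19, from 0.47 to 0.97 with an oocyte left out and down to 0.43 with means. Counts of genes past 2-fold moved most. Genes at least 2-fold higher numbered 165 in the main setting, 272 with index means, 92 with a pseudocount of 5, 3 with a mean of at least 100, 1192 without a filter, 295 with oocyte 61 counted as SN and 84 after thinning. Genes at least 2-fold lower numbered 114, then 230 with medians, 56 with a pseudocount of 5, 5 with a mean of at least 100, 1002 without a filter, 66 after thinning and 200 with Nlrp5 +/- oocytes 37 to 40 alone. With an oocyte left out they were 134 (without 55) to 229 (without 72) higher and 96 (without 80) to 146 (without 39) lower. The cause of these shifts was not tested, except that filters and thinning change how many genes are measured. Of 3759 alternative values for 161 named genes and lists, 30 moved by more than the spread between oocytes and 1 changed sign: the median over the study's list was −0.69 with a mean of at least 100, where Nlrp5 alone is left, instead of 2.92. With an oocyte left out that median was 0.94 (without 47) to 3.36 (without 72), and the cause was not tested. No paired analysis was possible because the labels give the oocytes no replicate numbers and no mouse. Depth limits the genes of the study's list other than Nlrp5, whose pooled Nlrp5 +/+ counts lay between 2 and 101.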
